A study of Mus musculus with 2 samples.

Results

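The miR-132/212, miR-138 and miR-29 genes are known from maturing neurons. Their levels are given here for the neural tube of mouse embryos of strain B6NCrl at embryonic day 11.5, the stage at which this tube is forming the brain and spinal cord. The 8 genes Mir132, Mir212, Mir138-1, Mir138-2, Mir29a, Mir29b-1, Mir29b-2 and Mir29c were taken by their identifiers, and all 8 were among the 1973 miRNA genes with a row of counts. The study held 1 group of 2 libraries of small RNA under 30 nt, with no second tissue, stage or treatment. Replicate 1 came from a pool of 109 embryos and replicate 2 from a pool of 88, each pool of both sexes and labelled healthy, with no transgene or treatment named. Since the tissue was sequenced whole, fewer cells of a type and less RNA per cell cannot be told apart. Of the 8 genes, 6 had at least 10 counts over both libraries. The other two, Mir29b-1 and Mir29b-2, had 4 and 6.

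A miRNA gene is transcribed as a precursor that folds into a hairpin. The hairpin is cut into a short mature strand from its 5′ arm (5p) or 3′ arm (3p), which guides silencing of mRNAs, chiefly through its seed, the bases from position 2 to 8. Mir132 and Mir212 are processed from 1 primary transcript, which the factor CREB induces after neuronal activity, and miR-132 promotes the growth of dendrites. miR-138 is a brain-enriched miRNA that limits the size of dendritic spines in rat hippocampal neurons. The miR-29 family accumulates in mouse brain as neurons mature, where it restrains proapoptotic BH3-only genes. In fibroblasts it lowers collagens and other matrix genes.

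The mature sequences show which of these genes could be counted apart. They are RefSeq's, on build GRCm38.p6, and all 8 genes were matched. The seed is in capitals.
miR-132-3p: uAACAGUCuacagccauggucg
miR-212-3p: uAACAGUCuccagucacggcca
miR-138-5p: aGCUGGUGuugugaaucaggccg
miR-29a-3p: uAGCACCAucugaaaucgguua
miR-29b-3p: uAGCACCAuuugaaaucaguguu
miR-29c-3p: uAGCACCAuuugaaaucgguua
The first pair shares a seed that no other mature miRNA of the table carries, and the same held for the miR-29 seed, which 3 mature miRNAs share. Counted from the 5′ end, miR-132-3p and miR-212-3p are identical over the first 9 bases and differ at 5 of 22 positions. miR-29a-3p differs from miR-29c-3p at 1 position only, C10U. miR-29c-3p and miR-29b-3p are identical over the first 17 bases and differ by G18A, U21G and A22U.

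Both copies of Mir138 carry the same miR-138-5p, and both copies of Mir29b carry the same miR-29b-3p. These hairpins are shown because a read of the run in capitals, which the copies share, fits both genes equally well.
Mir138-1: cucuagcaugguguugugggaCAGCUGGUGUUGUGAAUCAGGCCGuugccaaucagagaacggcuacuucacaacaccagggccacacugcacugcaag
Mir138-2: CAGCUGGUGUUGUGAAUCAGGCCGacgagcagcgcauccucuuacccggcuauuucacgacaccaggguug
Mir29b-1: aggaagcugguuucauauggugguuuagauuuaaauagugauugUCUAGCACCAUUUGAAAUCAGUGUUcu
Mir29b-2: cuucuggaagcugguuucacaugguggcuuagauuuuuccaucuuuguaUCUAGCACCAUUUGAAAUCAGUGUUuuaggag
The Mir138 run is 24 nt and reaches 1 nt before miR-138-5p. The Mir29b run is 25 nt and reaches 2 nt before miR-29b-3p. Neither run extends past the 3′ end of the mature strand. The opposite arms differ between the copies. The arms miR-138-1-3p and miR-138-2-3p differ at 2 of 20 aligned bases, and miR-29b-1-5p and miR-29b-2-5p at 2 of 21.

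Reads that mapped to several places were reported apart from the genes, 2153217 in replicate 1 and 2088167 in replicate 2. How many of them were miR-138-5p or miR-29b-3p was not analysed here. The counts of the copies are therefore those of reads that were told apart, such as the other arm or reads longer than the shared run, and are no measure of the shared strand. The longest run shared with any other hairpin of the table was 10 nt for Mir132, 11 nt for Mir212 and 14 nt for Mir29a. Mir29c shared 22 nt with Mir29b-1. Levels are given as counts on a gene's own strand per 1000000 such counts on all miRNA genes (CPM), with mean ± SD over n = 2. A read spans a whole mature strand, so counts were not divided by length. Whether different miRNAs were captured equally well was not measured. The totals were 3708662 counts in replicate 1 and 4055883 in replicate 2, so that 3 counts are 0.809 CPM and 0.740 CPM. Intervals are at 95% and cover counting error only.

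The 8 genes were a small part of the neural tube's counted miRNAs. Together they held 2104 counts in replicate 1 and 1857 in replicate 2, or 567 CPM and 458 CPM. Their share was 0.0567% (Wilson interval 0.0544 to 0.0592) and 0.0458% (0.0438 to 0.0479), with a mean of 0.0513% ± 0.00774 (SD, n = 2). Of the counts outside the 10 most abundant miRNA genes, they held 0.119%. The Mir138 copies made up 51.6% of these counts in replicate 1 and 50.7% in replicate 2. The Mir29 genes made up 25.9% and 24.8%, and Mir132 with Mir212 22.5% and 24.6%. The most abundant of the 8, Mir138-1, stood at rank 170 by mean CPM. In all, 4 of the 6 tested members lay above the median of the 444 genes with at least 10 counts, which was 74.6 CPM.

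**Figure D1:**
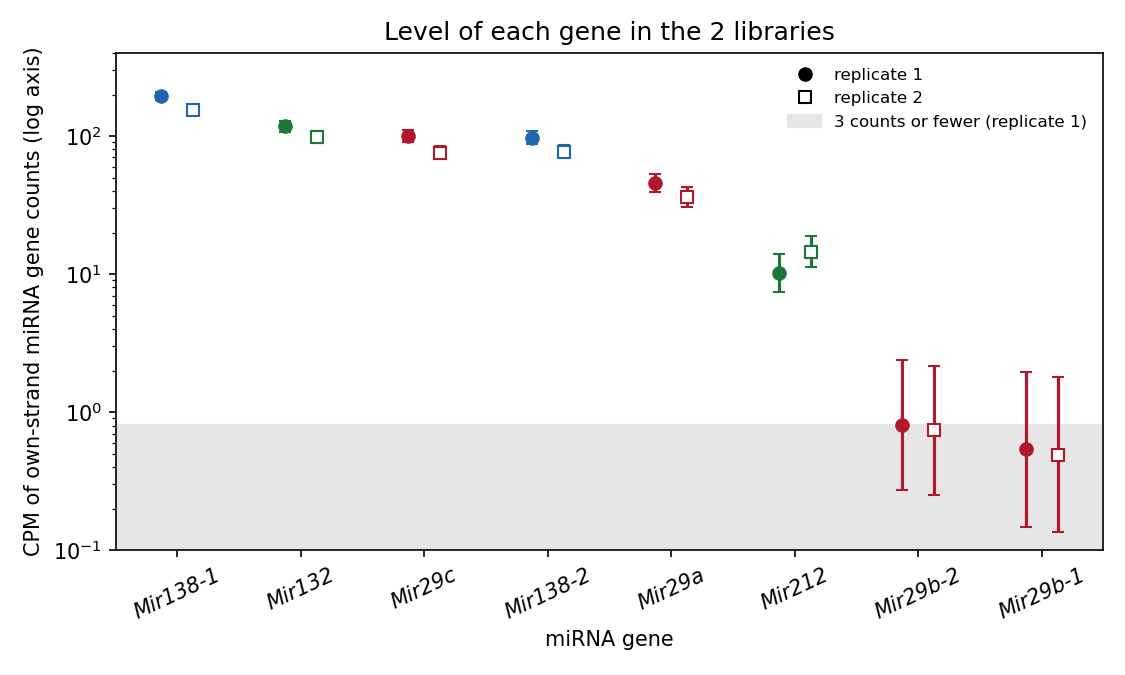
CPM of each gene on a log axis in replicate 1 (filled circles) and replicate 2 (open squares), with 95% Wilson intervals for counting error. Mir138-1 is highest at 195 and 155 CPM, and Mir29b-1 and Mir29b-2 lie in the grey band of 3 counts or fewer.

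Mir132 was present at a moderate level and far above its neighbour Mir212. It had 436 counts in replicate 1 and 397 in replicate 2, which is 118 CPM and 97.9 CPM (mean 108 ± 13.9). Mir212 had 38 and 59 counts, or 10.2 CPM and 14.5 CPM (mean 12.4 ± 3.04). Mir132 exceeded Mir212 in both libraries, and their ranges did not overlap. The ratio of counts was 11.5 in replicate 1 (exact interval 8.23 to 16.4) and 6.73 in replicate 2 (5.11 to 9.00). Mir132 thus took 92.0% of the pair's counts in replicate 1 (exact Clopper-Pearson interval 89.2 to 94.3) and 87.1% in replicate 2 (83.6 to 90.0). The intervals overlap only from 89.2 to 90.0, which does not show that the shares agree. No test over the libraries was run on the order of Mir132 and Mir212.

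The pair lies on chromosome 11 of GRCm38 (mm10), per GENCODE M21, with Mir212 from 75173388 to 75173478 and Mir132 from 75173682 to 75173747, both on the plus strand and 203 bp apart. Both sit in an intron of the noncoding gene 1700016P03Rik on the same strand. No arm of either gene occurs in another hairpin of the table, and their seed partners are each other, so reads of the pair had no copy to be divided with there.

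The Mir138 copies together held the highest level of the set, in nearly the same proportion in both libraries. Mir138-1 had 725 counts in replicate 1 and 629 in replicate 2, or 195 CPM and 155 CPM (mean 175 ± 28.6). Mir138-2 had 361 and 312 counts, or 97.3 CPM and 76.9 CPM (mean 87.1 ± 14.4). Mir138-1 was above Mir138-2 in each library and their ranges did not overlap. The ratio was 2.01 in replicate 1 (exact interval 1.77 to 2.28) and 2.02 in replicate 2 (1.76 to 2.32). Mir138-1 took 66.8% of the counts of the copies in both libraries, with intervals of 63.9 to 69.6 and 63.7 to 69.8. These are proportions of reads that were told apart, so they are not the proportion of miR-138-5p that each copy gives.

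Mir138-1 lies on chromosome 9 from 122682876 to 122682974 (plus strand) and overlaps an exon of Gm47135, annotated as a transcribed pseudogene. Mir138-2 lies on chromosome 8 from 94324311 to 94324381 (plus strand) and overlaps an exon of the long noncoding gene C78859. Of genes with 1 arm found in another gene's hairpin and 1 arm of their own, as both Mir138 copies are, 51 had a row. Their median was 54.7 CPM, and Mir138-1 stood at place 14 and Mir138-2 at place 19 among them.

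Within the miR-29 family, Mir29c and Mir29a held nearly all counts and the Mir29b copies almost none. Mir29c had 369 counts in replicate 1 and 308 in replicate 2, or 99.5 CPM and 75.9 CPM (mean 87.7 ± 16.7). Mir29a had 170 and 147 counts, or 45.8 CPM and 36.2 CPM (mean 41.0 ± 6.78). Mir29c was above Mir29a in both libraries without overlap, by a ratio of 2.17 (exact interval 1.81 to 2.62) and 2.10 (1.72 to 2.57). A read of one with a change at the single differing base would match the other, and this was not tested.

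Mir29b-2 had 3 counts in each library and Mir29b-1 had 2 in each, which is 0.809 and 0.740 CPM for the former and 0.539 and 0.493 CPM for the latter. Both were at or under the limit that a count of 0 allows, so their order was not detectable at this depth. The Mir29b copies together took 0.919% of the family's counts in replicate 1 (exact interval 0.299 to 2.13) and 1.09% in replicate 2 (0.354 to 2.52). Among the 51 genes with 1 shared arm, 40 reached 10 counts, against 2 of the 4 such members. Mir29b-2 was at place 42 and Mir29b-1 at place 46. Their counts leave out any miR-29b-3p read that fits both copies, so they do not show whether miR-29b-3p was low.

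Each Mir29b copy is a close neighbour of a better counted gene. On chromosome 6, minus strand, Mir29a spans 31062660 to 31062747 and Mir29b-1 spans 31063023 to 31063093, a gap of 275 bp. On chromosome 1, plus strand, Mir29b-2 spans 195037040 to 195037120 and Mir29c spans 195037547 to 195037634, a gap of 426 bp. Mir29c had 123 times the counts of Mir29b-2 in replicate 1 (exact interval 41.8 to 599) and 103 times in replicate 2 (34.8 to 501). Mir29a had 85.0 times (23.2 to 708) and 73.5 times (20 to 613) those of Mir29b-1. The chromosome 6 pair took 31.6% of the family's counts in replicate 1 (27.7 to 35.7) and 32.4% in replicate 2 (28.1 to 36.9). These ratios and shares leave out any miR-29b-3p read that fits both copies, so they do not measure the output of each hairpin. Mir29b-1 overlaps an exon of the long noncoding gene Gm27019. Mir29b-2 and Mir29c overlap exons of the noncoding A330023F24Rik on their own strand and of Cd46, a complement regulator, on the other. The opposite strand of all 8 genes had 0 counts in both libraries.

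**Figure D2:**
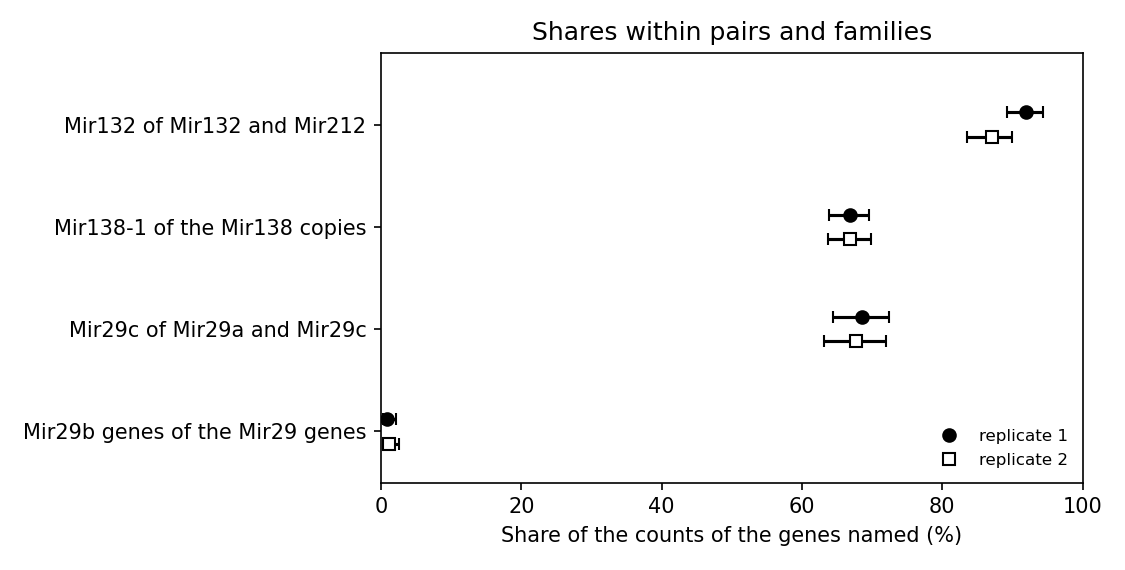
Share of counts in percent that the first gene or genes took of those named on each line, in replicate 1 (filled circles) and replicate 2 (open squares), with 95% exact intervals. The Mir138-1 share is 66.8% in both, while the Mir132 share is 92.0% and 87.1%.

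By mean level the order was Mir138-1, Mir132, Mir29c, Mir138-2, Mir29a, Mir212, Mir29b-2 and Mir29b-1. The ranges of Mir29c and Mir138-2 overlapped and their order differed between the libraries, so these neighbours did not differ beyond the spread. The ranges of Mir132 and Mir29c overlapped by total counts, with Mir132 higher in each library. Scaled by TMM, the trimmed mean of M values, they did not overlap, at 106 and 108 CPM for Mir132 and 90.1 and 83.9 CPM for Mir29c. The genes nearest in level, by distance of log2(CPM + 1) over the 2 libraries, were Mir1251 (109 ± 6.52 CPM) and Mir216b (112 ± 8.53) for Mir132. For Mir138-1 they were Mir679 (177 ± 40.2) and Mir155 (189 ± 34.2). Mir29c and Mir138-2 were each other's nearest gene, at a distance of 0.036, and Mir222 (89.8 ± 16.1) was the next for both. Mir383 (39.1 ± 6.48) and Mir3475 (42.9 ± 4.53) were nearest to Mir29a, and Mir504 (13.4 ± 0.611) and Mir7654 (11.3 ± 0.377) to Mir212. Such likeness over 2 libraries describes level only.

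**Figure D3:**
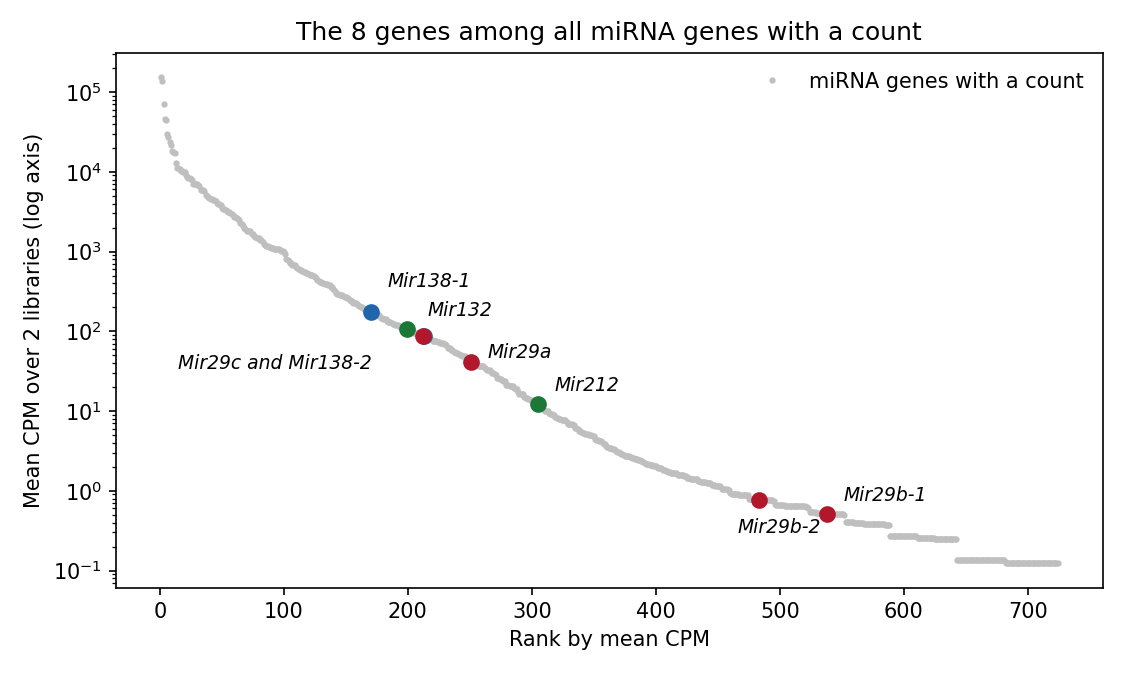
Mean CPM over 2 libraries on a log axis against rank, for the 724 miRNA genes with a count (grey) and the 8 genes (coloured by family). Ranks run from 170 for Mir138-1 to 538 for Mir29b-1, with Mir29c and Mir138-2 at 212 and 213 drawn on top of each other.

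Scaled by total counts, 5 of the 6 tested members were higher in replicate 1, and Mir212 was the exception. For each gene a binomial test (exact, two-sided) asked whether its counts were split between the libraries as their totals were, and p-values were adjusted over all 444 genes by the Benjamini-Hochberg method. The test sets these 2 libraries against counting noise and does not compare conditions. It called 4 of the 6 members, all higher in replicate 1, where it called 53.2% of all tested genes, 45.3% higher in replicate 1 and 7.88% higher in replicate 2. As log2 of replicate 1 over replicate 2, Mir29c stood at 0.39 (counting SE 0.11, exact binomial adjusted p = 0.00112) and Mir138-1 at 0.33 (SE 0.08, exact binomial adjusted p = 5.96e-05). It was 0.34 for Mir138-2 (SE 0.11, exact binomial adjusted p = 0.00513) and 0.26 for Mir132 (SE 0.10, exact binomial adjusted p = 0.0172). Mir29a had a ratio of 0.34 (SE 0.16) and did not pass (exact binomial adjusted p = 0.0689), nor did Mir212, with -0.50 (SE 0.30, exact binomial adjusted p = 0.172).

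The median log2 ratio of all tested genes was itself 0.27, and that of the 6 members was 0.34. Relative to that median the 5 genes lay between -0.00 for Mir132 and 0.12 for Mir29c, and Mir212 at -0.77. Under TMM scaling, which moved the median of all genes by -0.29, none of the 4 calls was kept and Mir132 turned to -0.02. Mir212 was then the only member called, with a log2 ratio of -0.79 (exact binomial adjusted p = 0.0219), against a background of 39.9% of genes called, 18.2% higher in replicate 1 and 21.6% higher in replicate 2. DESeq2's size factors gave the same single call (exact binomial adjusted p = 0.0283), against 41% of all tested genes called. Of the 182 genes so called, 87 were higher in replicate 1 and 95 in replicate 2. Over the alternatives the adjusted p of Mir212 ran from 0.0219 to 0.271. The log2 ratios of Mir132 and Mir212 differed by 0.76, with a counting SE of 0.32, a difference that no scaling changes.

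**Figure D4:**
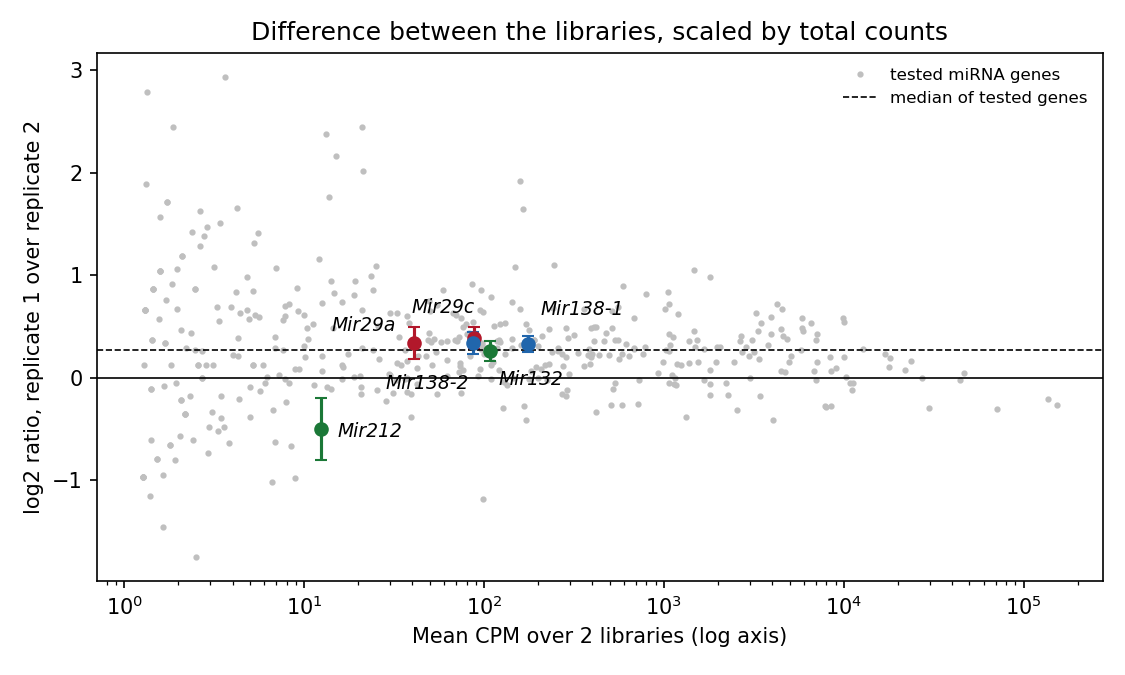
The log2 ratio of replicate 1 over replicate 2, scaled by total counts, against mean CPM on a log axis for the 444 tested genes (grey) and the 6 tested members with bars of 1 counting SE. The dashed line is the median of the tested genes at 0.27, where 5 members lie close by, while Mir212 lies at -0.50.

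Some other neuronal and glial miRNA genes had far more counts than the 8 genes, and others did not. A list of 22 such genes had 21 with a row, all tested. By mean CPM, 9 of the 21 lay above Mir138-1 and 12 below it. The median was 110 CPM in the list and 64.1 CPM over the 8 genes. Several genes on both sides are copies whose shared reads are left out, so these values compare counted reads only. The list summed to 19190 CPM in replicate 1 and 15826 CPM in replicate 2, 33.8 and 34.6 times the sum of the 8. Its highest members were Mir219a-2 of oligodendrocyte differentiation (7100 ± 1480 CPM), Mir92b of neural progenitors (4979 ± 383), Mir137 of neuronal differentiation (1965 ± 289) and Mir134, an activity-regulated miRNA that limits dendritic spines (1062 ± 27.4). The first pair held 69.8% of the list's counts in replicate 1 and 68.0% in replicate 2. At the low end stood Mir9-2 (2.31 ± 0.218 CPM), Mir129-1 (4.84 ± 2.31) and the 3 copies of neuronal miR-124. These copies were Mir124a-1 (2.46 ± 0.338 CPM), Mir124a-2 (10.5 ± 1.94) and Mir124a-3 (1.56 ± 0.463). Their counts leave out any read that fits several of these copies, so they do not show whether miR-124 was low. Of the 21, 9 were called higher in replicate 1, 0 higher in replicate 2 and 12 not called, with a median log2 ratio of 0.27. With TMM scaling these were 3, 6 and 12, with a median of -0.01. For all tested genes, total counts called 45.3% higher in replicate 1 and 7.88% in replicate 2, with a median of 0.27. TMM scaling called 18.2% and 21.6% of them, with a median of -0.02. At levels like those of the 8 genes stood Mir7b (146 ± 0.442 CPM), Mir128-1 (110 ± 41.5), Mir7-2 (82.2 ± 17.6) and Mir128-2 (69.6 ± 20.6). So did Mir338 (47.7 ± 5.02), Mir218-1 (36.6 ± 0.237) and Mir129-2 (14 ± 0.753). Of these, Mir128-1, Mir128-2, Mir7-2, Mir218-1 and Mir129-2 also have 1 arm found in another gene's hairpin.

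Markers of other cell types were counted beside the 8 genes, since miR-29 in particular is also made outside neurons. The 8 genes for mesenchyme, smooth muscle and cartilage summed to 24358 CPM in replicate 1 and 17966 CPM in replicate 2, 42.9 and 39.2 times the 8 members. Most of the sum lay in Mir214 (9943 ± 2793 CPM), Mir143 (5789 ± 761) and Mir140 (4821 ± 889). Mir199b (380 ± 40.8), Mir145a (123 ± 21.3), Mir199a-2 (96.5 ± 13.4) and Mir199a-1 (9.41 ± 0.413) were far lower, with Mir145b at 0 in both. Of the 7 tested, 6 were called higher in replicate 1 by total counts and 2 with TMM scaling. For all tested genes, total counts called 45.3% higher in replicate 1 and 7.88% higher in replicate 2. TMM scaling called 18.2% and 21.6%. No list of markers was tested against these shares. The endothelial Mir126a held 24945 and 22302 CPM, called higher in replicate 1 by total counts and higher in replicate 2 with TMM scaling. The 2 erythroid genes summed to 520 and 368 CPM and the 2 leukocyte genes with a row to 479 and 356 CPM, all 4 of them higher in replicate 1 by total counts and 1 of each kind with TMM scaling. The 7 muscle genes with a row summed to 1477 and 940 CPM, of which Mir206 held 1358 and 761 CPM. Mir133a-1 and Mir133a-2 were at 0. Reads that fit several genes are left out, so a count of 0 does not show absence. The 7 epithelial genes summed to 4063 and 3670 CPM, and the 4 liver and gut genes to 137 CPM in each library. By total counts, 2 of the 4 tested muscle genes, 4 of the 7 epithelial genes and 0 of the 3 tested liver and gut genes were called higher in replicate 1, and 1 muscle gene was called higher in replicate 2. With TMM scaling the calls higher in replicate 1 and in replicate 2 were 1 and 1 for muscle, 1 and 2 for epithelium, and 0 and 1 for liver and gut. The part of these cells in the levels of the 8 genes was not tested.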

How the data were processed

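Small RNA of mouse neural tube was measured in 2 libraries of 1 group, named by the replicate numbers of the labels. The labels name separate pools of embryos. The authors deposited whole-number read counts, 1 row a gene, on assembly mm10 with annotation M4, per the file headers. For the aligner, counter and trimming the entry is: not given in the sources used here. Each file had 3 count columns without names, read from their values as either strand, own strand and opposite strand. Own-strand counts were used. Reads that named no gene stood in rows of their own and were left out. They were 56.5% of 8530505 reads in replicate 1 and 47.0% of 7655421 in replicate 2, and 25.2% and 27.3% of reads mapped to several places.

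Symbols and coordinates came from GENCODE M21 (GRCm38), matched by identifier without its version, which found 1894 of 1973 genes. M4 coordinates may differ. Sequences came from a RefSeq table with 1005 hairpins, which is not complete, so a sequence called unshared is unshared in that table. Genes with at least 10 summed counts were tested (threshold 0.05, log2 ratios with a pseudocount of 0.5). Reads are taken as independent, so PCR copies make p-values too small. The test was tried on simulated counts with counting noise only, so that trial does not cover further variation between these pools. TMM factors (edgeR 4.0.16) and size factors (DESeq2 1.42.0, R 4.3.3) were computed on the tested genes. The rest used Python 3.11.15 and scipy 1.17.1. The members and lists were chosen with earlier results of these data known. Named genes were the members, the 2 genes nearest in level to each, and up to 4 of the neuronal list by mean CPM. The other genes named from the neuronal list, such as Mir128-1, Mir128-2 and the Mir124a copies, were chosen after their values were seen.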

Additional observations from a re-analysis of the deposited data

How the results depend on the processing

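Scaling was the choice that changed calls. The number of members differing between the libraries was 4 by total counts, and 1 with TMM scaling and 1 with DESeq2's size factors, and that one was Mir212 rather than any of the 4. The log2 ratio of Mir132 turned from 0.26 to -0.02 with TMM scaling and to -0.00446 with DESeq2's size factors. The share of all tested genes called was 53.2%, 39.9% and 41% in these 3 settings. The filter and the counts of either strand left 4 members called, but the genes tested changed. With at least 1 summed count these were 4 of 8 members, where 31.6% of 724 genes were called. With at least 100 they were 4 of 5, where 74.8% of 301 genes were called. With either strand they were 4 of 6, where 54% of 454 genes were called. The number of all genes called was 236 of 444, and 177 to 245 under the alternatives. By total counts 201 of these were higher in replicate 1 and 35 in replicate 2, and TMM scaling gave 81 and 96. The summed share of the members was 0.0513%, and 0.119% of the total without the 10 most abundant genes. Leaving out either replicate left the shares within pairs and the levels within 1 SD, a limit that the mean of 2 values cannot pass. No paired analysis was possible because there is 1 group. With at least 100 summed counts Mir212 was not tested, and at its depth of 38 and 59 counts a log2 difference has a counting SE of 0.30.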
